A study of Mus musculus with 30 samples.

Results

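Cytochrome P450 enzymes of families 1 to 4 carry out most of the oxidation of drugs, dietary compounds, steroids, bile acids and fatty acids in the liver. They are haem proteins of the endoplasmic reticulum, and families 1, 2 and 3 are best known for foreign compounds while family 4 hydroxylates fatty acids and eicosanoids. Many of the genes stand in clusters of near-identical copies, and nuclear receptors such as CAR, PXR, PPAR-alpha and HNF4-alpha, the aryl hydrocarbon receptor (AhR) and the pattern of growth hormone release control them. The members were the genes whose array symbol is Cyp with a family number of 1 to 4, a single subfamily letter and a number, and stands alone on its probe set, with the probe set of the highest mean taken for each gene. The rule gave 72 genes of the 22180 genes with a probe set of their own, of which 3 were in family 1, 47 in family 2, 7 in family 3 and 15 in family 4. A further 14 probe sets with a symbol of these families fell outside the rule. Of these, 6 carry several symbols, among them both probe sets of *Cyp4a10*, 4 carry a pseudogene symbol, and *Cyp2ab1*, *Cyp4a12a*, *Cyp4a12b* and *Cyp4a30b* have more letters than the rule takes.

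Bulk liver RNA of 30 male wild-type C57BL/6J mice was profiled with the Mouse Gene 2.0 ST array of Affymetrix. Each of 5 groups held 6 mice, all 35 weeks old. Lean mice received a control diet for 27 weeks and obese mice a high-fat diet (HFD) for 27 weeks. Formerly obese mice received HFD for 20 weeks and the control diet for 7 weeks after it. Lean-HFD mice were lean mice and formerly obese-HFD mice formerly obese mice that received HFD for the last 48 h. The diet groups share their strain and sex, the labels name no allele or drug, and each array holds 1 mouse.

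Values are linear signals in arbitrary units, given as mean ± SD of 6 livers, and levels of different genes were not compared because probe sets differ in their binding. A gene counts as changed where limma gave *P* under 0.01, the ratio of linear averages was above 1.2 in either direction and the average was above 8 in at least 1 of the groups compared. Beside it stands the count below a Benjamini-Hochberg adjusted *P* of 0.1, a 10% false discovery rate (FDR), adjusted over all 41345 probe sets. Exact *P* values are from two-sided permutation tests over all arrangements of 6 against 6 livers. The *P* values set the difference between group means against the spread between these livers. Of the 72 members, 55 had an average above 8 in at least 1 of the 5 groups and 17 did not, among the latter *Cyp1b1* and *Cyp2b10*. The livers carried the defining transcripts of hepatocytes at a high level, with albumin (*Alb*) between 5619 and 6594 in all of them. *Xist* lay at most at 7.81 and the Y-linked *Eif2s3y* at least at 184 in each of the 30 livers. Arrays correlated with *r* of 0.962 to 0.983 across probe sets. Formerly obese-HFD replicate 6 stood apart: its mean *r* with the other arrays was the lowest (0.968), its members deviated from their group means by 0.571 on the log2 scale on average, and the next largest deviation was 0.417. Fold changes of members in the comparisons that use it are therefore given with and without it, except for *Cyp2d13*. In bulk RNA, fewer cells of a type cannot be told apart from less RNA per cell.

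Promoters of 60 of the 72 members were found in RefSeq (GRCm38.p6, 250 bases before to 50 bases after the start, 300 in all). Those of *Cyp2b9* (chr7:26173159-26173458 on the plus strand) and *Cyp2b13* (chr7:26061245-26061544 on the plus strand) are shown because both genes had their highest levels in the same obese livers. Capitals mark the bases that differ between them, which are 2 of 300.
Cyp2b9: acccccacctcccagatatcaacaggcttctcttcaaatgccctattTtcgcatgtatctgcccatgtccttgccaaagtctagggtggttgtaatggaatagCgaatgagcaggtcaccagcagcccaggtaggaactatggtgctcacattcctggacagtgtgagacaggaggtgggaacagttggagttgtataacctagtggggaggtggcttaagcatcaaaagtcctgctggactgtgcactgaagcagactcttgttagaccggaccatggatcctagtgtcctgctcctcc
Cyp2b13: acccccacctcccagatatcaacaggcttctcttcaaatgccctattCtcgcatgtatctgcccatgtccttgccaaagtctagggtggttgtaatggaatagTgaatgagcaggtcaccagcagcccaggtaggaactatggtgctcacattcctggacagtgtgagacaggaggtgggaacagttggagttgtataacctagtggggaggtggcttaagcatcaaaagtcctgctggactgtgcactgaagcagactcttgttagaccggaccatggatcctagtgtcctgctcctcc
Counted from the first base shown, with the base of *Cyp2b9* first, the differences are T48C and C104T. The promoter of *Cyp2b10*, their best studied relative, shared a longest unbroken run of 14 bases with that of *Cyp2b9*.

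*Cyp2a12* (chr7:27028840-27029139 on the plus strand) and *Cyp2a22* (chr7:26939337-26939636 on the minus strand) lie on the same chromosome and were the members that rose in obese livers. Capitals mark the longest run that their promoters share, 50 bases.
Cyp2a12: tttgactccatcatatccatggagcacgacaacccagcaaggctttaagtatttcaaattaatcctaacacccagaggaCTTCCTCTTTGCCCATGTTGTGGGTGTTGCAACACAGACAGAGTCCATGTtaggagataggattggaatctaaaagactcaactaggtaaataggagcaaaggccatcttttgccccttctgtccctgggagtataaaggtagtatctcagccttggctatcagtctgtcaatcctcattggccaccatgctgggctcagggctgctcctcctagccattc
Cyp2a22: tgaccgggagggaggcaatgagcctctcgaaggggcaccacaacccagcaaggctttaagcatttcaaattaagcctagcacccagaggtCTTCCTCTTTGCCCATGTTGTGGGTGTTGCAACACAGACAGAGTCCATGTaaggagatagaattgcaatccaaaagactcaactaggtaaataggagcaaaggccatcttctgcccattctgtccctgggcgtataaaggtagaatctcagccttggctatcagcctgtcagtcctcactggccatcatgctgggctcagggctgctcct
With this run aligned and no gaps, 258 of 289 bases were identical (89.3%).

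The promoter of *Cyp2c70* (chr19:40187237-40187536 on the minus strand), a gene that rose after 48 h of HFD, is shown with CAAAGTCCA in capitals, letters that resemble the element bound by HNF4-alpha.
Cyp2c70: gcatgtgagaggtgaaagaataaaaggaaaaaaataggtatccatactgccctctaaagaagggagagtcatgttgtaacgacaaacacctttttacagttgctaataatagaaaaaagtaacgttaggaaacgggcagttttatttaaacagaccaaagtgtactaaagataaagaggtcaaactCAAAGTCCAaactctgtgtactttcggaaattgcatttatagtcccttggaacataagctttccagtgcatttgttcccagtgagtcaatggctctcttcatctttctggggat
On either strand, these 9 letters occurred in the promoters of 7 of 60 members (11.7%) and in 0.475% of all 32851 promoters of the same length. Here and below a member counted where any of its promoters held the letters (67 promoters in all), while the share of all was per promoter. Besides *Cyp2c70* the members were *Cyp2c40*, *Cyp2c65*, *Cyp2c68*, *Cyp2c69*, *Cyp3a11* and *Cyp3a16*, and the letters began between 45 and 116 bases before the start. All 7 are Cyp2c or Cyp3a genes, and related copies are not independent occurrences. Of these 7, *Cyp2c70* alone changed in any comparison below. TATAAA, on either strand, occurred in 25 of 60 members (41.7%) and in 13.6% of all promoters, and TTGCNNAA, the core of C/EBP elements, in 14 (23.3%) and 10.8%. GCGTG, the core bound by the aryl hydrocarbon receptor, occurred in 13 members (21.7%) and in 32.4% of all promoters. *Cyp1a1* and *Cyp1b1* were among these 13 and *Cyp1a2* was not.

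The members differed widely in how much livers of the same group varied. The SD of log2 signals within groups was 2.41 for *Cyp2b9*, 1.27 for *Cyp2c38*, 1.10 for *Cyp2a4* and 0.99 for *Cyp4a14*, and 0.10 for *Cyp2e1*, which oxidises ethanol, and 0.07 for *Cyp2d26*. Members of the Cyp2a, Cyp2b, Cyp2c and Cyp4a subfamilies thus held the largest spreads, but *Cyp2a12*, at 0.11, was among the steadiest. The same holds for the signals behind these values: *Cyp2e1* lay between 3198 and 4321 in all 30 livers and *Cyp2b9* between 8.82 and 2921.

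**Figure D1:**
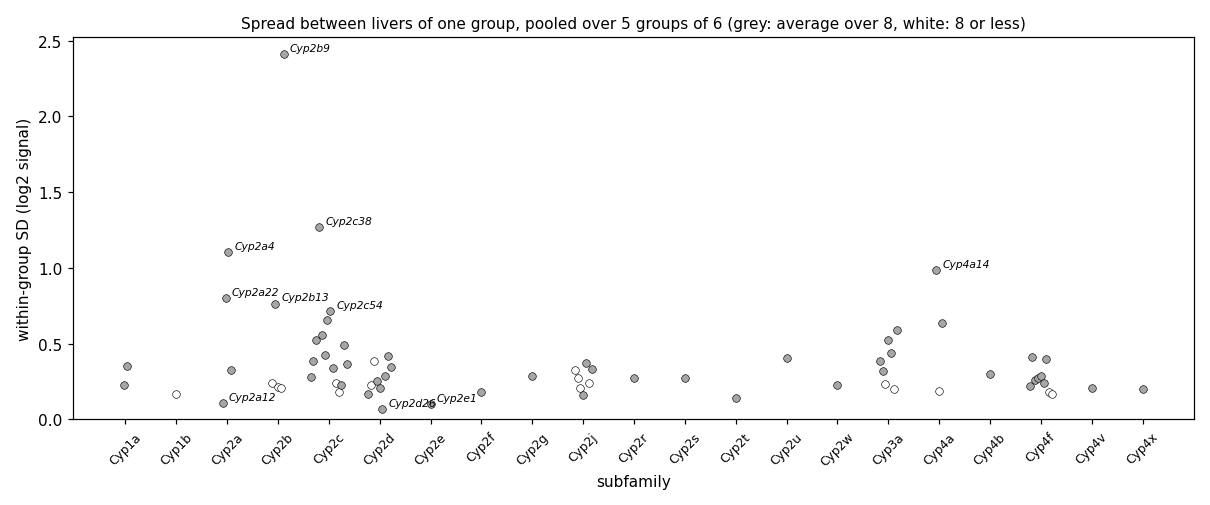
Spread between livers of the same group (SD of log2 signal, pooled over 5 groups of 6 livers) for each of the 72 members, by subfamily. *Cyp2b9* reached 2.41 and *Cyp2d26* lay at 0.07. White points are members with an average of 8 or less in every group.

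Obese and lean livers were compared to ask what 27 weeks of HFD changes. Of 4 Cyp2a members 2 were higher in obese livers, and a Cyp2j member was lower: *Cyp2a12* and *Cyp2a22* rose and *Cyp2j9* fell, which is 3 of 72 members (4.17%). Of all probe sets, 2.01% were past the same criteria (1.14% higher, 0.878% lower), and 3.21% of those past the average. *Cyp2j9* alone was past the FDR, which 0.0895% of all probe sets were. The median log2 fold change was 0.08 over the members and -0.01 over all probe sets, and 10 members had an unadjusted limma *P* under 0.05 (7.79% of all probe sets).

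*Cyp2j9*, of a subfamily that oxidises arachidonic acid, ranged from 42.9 to 52.6 (median 48.3) in obese and from 61.6 to 107 (median 79.1) in lean livers. All obese livers lay below all lean livers, which was so for 1 member and for 0.655% of all probe sets. The mean was 48.2 ± 4.0 vs 81.5 ± 15.3, a log2 fold change of -0.74 (standard error 0.120, limma *P*=3.05e-05, adjusted *P*=0.060, exact *P*=0.00216, the smallest that 6 against 6 livers allow). *Cyp2a12*, which hydroxylates steroids and bile acids, ranged from 2125 to 2569 (median 2311) in obese and from 1669 to 2137 (median 1845) in lean livers. The ranges met only at 1 lean liver, and the log2 fold change was 0.32 (standard error 0.0839, limma *P*=0.00212, adjusted *P*=0.299, exact *P*=0.00433). *Cyp2a22*, a close relative, ranged from 38.5 to 201 (median 79.3) in obese and from 19.5 to 52.9 (median 32.2) in lean livers. Obese replicates 2, 3 and 6 lay at 105 or more, the other 3 obese livers lay within or at the edge of the lean range, and the log2 fold change was 1.45 (standard error 0.411, limma *P*=0.0037, adjusted *P*=0.346, exact *P*=0.0173). These 3 calls held with any of the 12 livers left out.

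*Cyp2b9* and *Cyp2b13*, which are known as female-predominant genes of mouse liver, split the obese livers and did not pass. *Cyp2b9* measured 2921, 2241, 1625 and 1727 in obese replicates 2, 3, 4 and 6 but 22.0 and 176 in obese replicates 1 and 5, and lay between 16.1 and 442 (median 98.7) in lean livers. Obese livers thus fell into high and low values, and the low ones lay within the lean range. The means were 1452 ± 1145 and 149 ± 156, with a log2 fold change of 2.82 (standard error 1.16, limma *P*=0.0297, exact *P*=0.0606). Without obese replicate 1 it was 3.79 and *P* was 0.000808. *Cyp2b13* measured 123, 32.7, 27.5 and 10.5 in obese replicates 2, 3, 4 and 6 and 6.65 and 6.82 in obese replicates 1 and 5, against 5.21 to 7.80 in lean livers. The same 4 obese livers were the high ones for both genes, whose promoters are the pair printed above. The log2 fold change of *Cyp2b13* was 1.54 (standard error 0.590, limma *P*=0.0213, exact *P*=0.0346), and *P* was 0.00717 without obese replicate 1 and 0.00755 without obese replicate 5. All lean livers lay below the minimum average of 8 for *Cyp2b13*, so the size of this fold change is uncertain. Probe sets of close copies may bind both transcripts, which was not tested, and the same holds for *Cyp2a4* and *Cyp2a5* and for the Cyp2c and Cyp4a genes, *Cyp2c38*, *Cyp2c39*, *Cyp4a14* and *Cyp4a31* among them. *Cyp2b10*, the gene by which CAR activity is commonly read, lay at 8.73 or less in all of these livers.

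Sex-biased genes and targets of PPAR-alpha outside the members were read in the same livers. Of 13 measured genes known to be higher in male than in female mouse liver, none passed in obese vs lean livers, 4 had *P* under 0.05 and 12 were lower, with a median of -0.29. Obese replicates 2 and 3 had the lowest value of the obese livers for 5 and 8 of these 13 genes, and obese replicate 5 had the highest for 12. Their mean deviations from the group mean were 0.45, -0.85, -0.99, 0.41, 1.08 and -0.10 in obese replicates 1 to 6. Replicate 4, with high *Cyp2b9*, and replicate 1, with low *Cyp2b9*, thus had similar values. Of 14 female-biased genes, 1 rose (*Tox*, log2 0.67), the median was 0.15, and the mean deviations were -0.35, 0.25, 0.20, -0.14, -0.24 and 0.28 in the same order. Of 23 measured targets of PPAR-alpha outside the P450s, 7 rose and none fell, among them *Acot1* (log2 0.70), *Acadm* (0.34), *Pex11a* (0.71) and *Slc25a20* (0.45). Their median was 0.28.

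*Cyp4a14*, a fatty acid hydroxylase and the P450 most often used to read PPAR-alpha activity, did not pass. It ranged from 905 to 1914 (median 1716) in obese and from 393 to 1344 (median 1011) in lean livers, and 5 of 6 obese livers lay above all lean livers. The log2 fold change was 0.81 (standard error 0.284, limma *P*=0.0134, exact *P*=0.0216). Obese replicate 1 was the low liver, and without it the change was 0.97 and *P* was 0.00389. *P* was also below 0.01 without lean replicate 1 or 6.

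The regulators of the P450 genes were measured as well. Of 20 in the list, *Nr1i3*, which encodes CAR, rose from 814 ± 111 in lean to 1092 ± 140 in obese livers (log2 0.43, standard error 0.112, adjusted *P*=0.299), and the other regulators did not pass. Of 21 measured targets of CAR and PXR outside the P450s, 3 rose and 1 fell. The transporters *Abcc3* (log2 0.62) and *Abcb1a* (0.73) and the pericentral enzyme *Aldh1a1* (0.39) rose, and the conjugating enzyme *Ugt2b35* (-0.36) fell. Of 13 measured redox partners and genes of haem supply, *Ppox* fell (log2 -0.39), and the remaining 12 did not pass.

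Other members of known role did not pass in obese vs lean livers. *Cyp1a2* averaged 1972 ± 242 in obese and 1657 ± 209 in lean livers (log2 0.25, standard error 0.111, limma *P*=0.0404, exact *P*=0.0346). *Cyp2u1*, which hydroxylates long-chain fatty acids, averaged 113 ± 19.2 and 168 ± 47.9 (log2 -0.55, standard error 0.187, limma *P*=0.0118, exact *P*=0.0216), and *P* was 0.00353 and 0.00855 without lean replicate 1 or 6. *Cyp4f13* averaged 122 ± 17.3 and 150 ± 20.5 (log2 -0.30, limma *P*=0.029, exact *P*=0.039), and *P* was 0.00398 without lean replicate 6. Means of *Cyp2e1* (3998 and 3833), *Cyp3a11*, the main drug-metabolising Cyp3a gene (774 and 757), *Cyp2f2* (1793 and 1771) and *Cyp2r1*, which hydroxylates vitamin D (169 and 184), each lay within 1 SD of the other group. The summed signal of 9 hepatocyte markers was 31046 to 32797 in lean and 29968 to 31603 in obese livers, and none of them passed. Single markers of other cell types rose: *Lyve1* of 8 sinusoidal endothelial (sums of 888 to 1284 in lean and 966 to 1306 in obese livers), *Col3a1* of 8 stellate and fibroblast (1479 to 1964 and 1614 to 2078) and *Cd3g* of 8 lymphocyte markers (70.0 to 82.8 and 75.6 to 95.4). Above 0 lay 4 of the 8 sinusoidal endothelial, 5 of the 8 stellate and fibroblast and 7 of the 8 lymphocyte markers. The medians were -0.01, 0.17 and 0.13 in the same order. None of these markers is a member, and their part in the results was not tested.

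**Figure D2:**
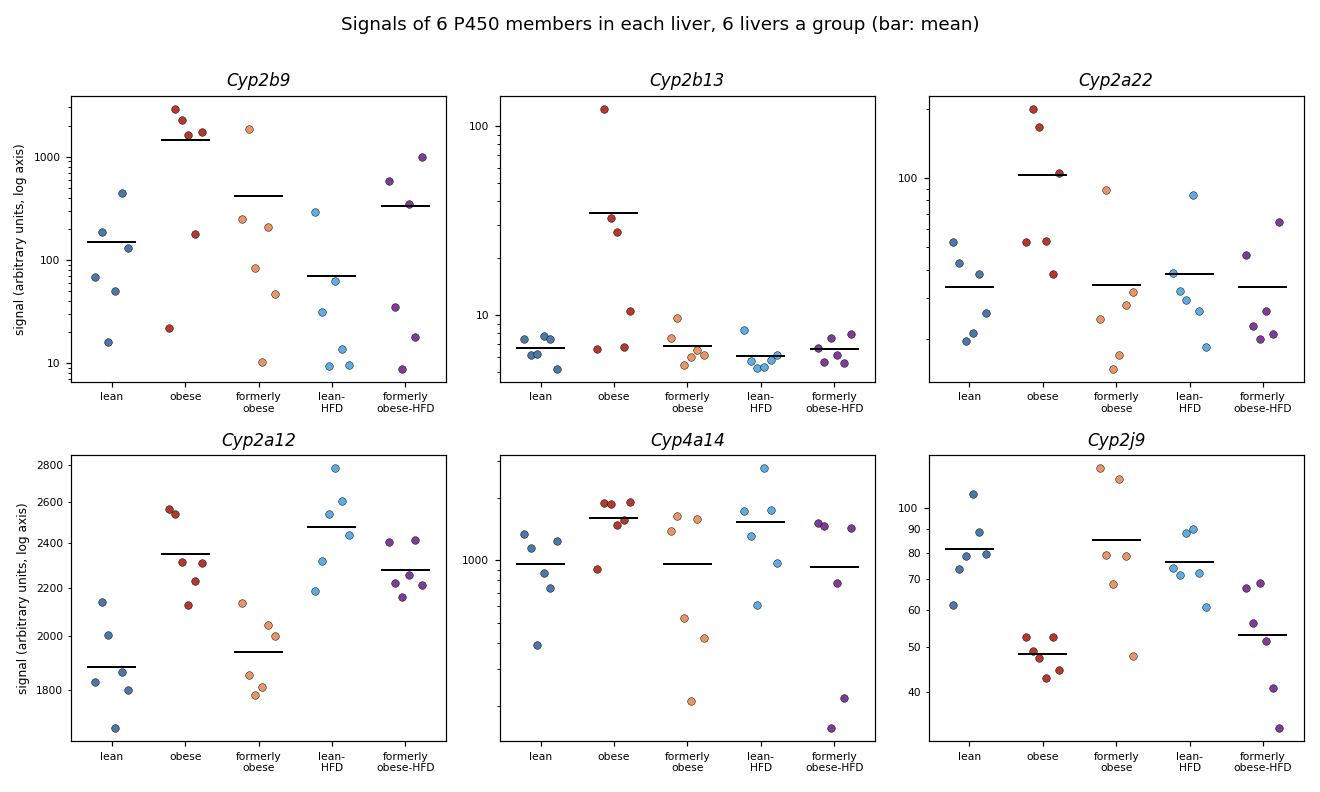
Signals (arbitrary units, logarithmic axis) of *Cyp2b9*, *Cyp2b13*, *Cyp2a22*, *Cyp2a12*, *Cyp4a14* and *Cyp2j9* in each of 30 livers, 6 per group, with the mean as a bar. *Cyp2j9* lay at 42.9 to 52.6 in obese and 61.6 to 107 in lean livers, and *Cyp2b9* in obese livers lay either at 176 or less or at 1625 or more.

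Formerly obese livers were compared with lean livers to ask whether a difference remained 7 weeks after the switch to the control diet. No member passed, against 0.905% of all probe sets (0.554% higher, 0.351% lower) and 1.45% of those past the average, and neither a member nor any other probe set was past the FDR. At an unadjusted limma *P* under 0.05 there was 1 member (5.87% of all probe sets), *Cyp2c55*, with means of 35.6 and 27.5 (log2 0.36, limma *P*=0.0455, exact *P*=0.0823). The median log2 fold change of the members was 0.02. *Cyp2j9* ranged from 47.8 to 122 (median 78.8) in formerly obese livers, beyond the lean range on both sides, and *Cyp2a12* from 1783 to 2134 (median 1926), within it. *Cyp2a22* ranged from 14.8 to 88.6 (median 26.3). The highest of these values was that of formerly obese replicate 2, which also had the highest *Cyp2b9* (1872, the others 10.2 to 249) and *Cyp2b13* (9.69) of its group. The same liver had the highest value of the group for 10 of 14 female-biased genes and for 18 of 23 PPAR-alpha targets, and the lowest for 6 of 13 male-biased genes (mean deviation -0.67). Formerly obese replicate 1, with a *Cyp2b9* of 249, was the lowest for another 6 (mean deviation -0.82). Of 10 measured markers of Kupffer cells and macrophages, 4 rose in formerly obese vs lean livers (*Timd4*, log2 0.78, *Cd68*, 0.54, *Vsig4*, 0.56, and *Csf1r*, 0.45), with sums of 853 to 1639 and 657 to 1053. *Sox9* of 5 cholangiocyte markers rose (log2 0.45), but it alone of the 5 lay above 0, and their median was -0.06. None of 9 hepatocyte markers passed.

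Compared with obese livers, formerly obese livers had higher *Cyp2j9* and *Cyp4f13* and lower *Cyp2a12* and *Cyp2a22*, 4 of 72 members (5.56%), against 2.17% of all probe sets (1.15% higher, 1.03% lower) and 3.51% of those past the average. Groups overlapped for all members (0.83% of all probe sets did not). This comparison uses the same obese livers as the one above. None was past the FDR (0.189% of all probe sets), and 13 members had *P* under 0.05 (8.52% of all probe sets). *Cyp2j9* was higher by 0.76 on the log2 scale (standard error 0.191, limma *P*=0.00162, adjusted *P*=0.21, exact *P*=0.00866), and the lowest formerly obese liver, replicate 6, lay within the obese range. *Cyp4f13*, of a subfamily that hydroxylates leukotrienes and fatty acids, ranged from 136 to 168 (median 151) in formerly obese and from 98 to 142 (median 121) in obese livers. Its log2 fold change was 0.32 (standard error 0.102, limma *P*=0.00805, adjusted *P*=0.378, exact *P*=0.013). *Cyp2a12* fell by 0.28 (standard error 0.0782, limma *P*=0.0035, exact *P*=0.00433) and *Cyp2a22* by 1.60 (standard error 0.481, limma *P*=0.00533, exact *P*=0.0238). These 3 calls depended on single livers. *Cyp4f13* was lost without formerly obese replicate 1, 3, 4 or 5 or obese replicate 1, 2, 4 or 6, *Cyp2a22* without formerly obese replicate 1, 3 or 4 or obese replicate 2, 3 or 6. *Cyp2a12* was lost without formerly obese replicate 3 or 4 or obese replicate 1 or 2, where the ratio fell below 1.2 and *P* stayed at 0.00958 or less.

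In the same comparison the list genes moved as follows. *Nr1i3* fell from 1092 ± 140 to 697 ± 201 (log2 -0.68, standard error 0.158, adjusted *P*=0.168), and 7 of 23 PPAR-alpha targets fell and none rose, with a median of -0.34. *Vnn1* fell by 1.44, *Cd36* by 1.21, *Cpt2* by 0.30 and *Pdk4* by 0.90. Among 21 CAR and PXR targets outside the P450s 3 fell and none rose, with a median of -0.01. *Cyp4a14* averaged 957 ± 637 in formerly obese livers, and its values split into 212, 423 and 529 in replicates 4, 6 and 3 and 1376 to 1624 in replicates 1, 2 and 5. It did not pass (log2 -1.06, limma *P*=0.0376, exact *P*=0.0736). *Cyp2c54*, named here after its values were seen, averaged 217 in formerly obese and 373 in obese livers (log2 -0.82, limma *P*=0.0297, exact *P*=0.0498). Of the 10 macrophage markers, *Timd4* and *Marco* rose (log2 0.70 and 1.12). The hepatocyte gene *Tat* rose (log2 0.53), but only 5 of 9 hepatocyte markers lay above 0 and their median was 0.003. *Lyve1* of 8 sinusoidal endothelial markers (log2 -0.67) and *Krt7* of 5 cholangiocyte markers (log2 -0.47) fell. *Lyve1* went against most of its list, in which 6 of 8 markers lay above 0 and the median was 0.13. *P* was under 0.05 for 4 of these 8 sinusoidal endothelial markers. Their sums were 960 to 1240 in formerly obese and 966 to 1306 in obese livers.

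**Figure D3:**
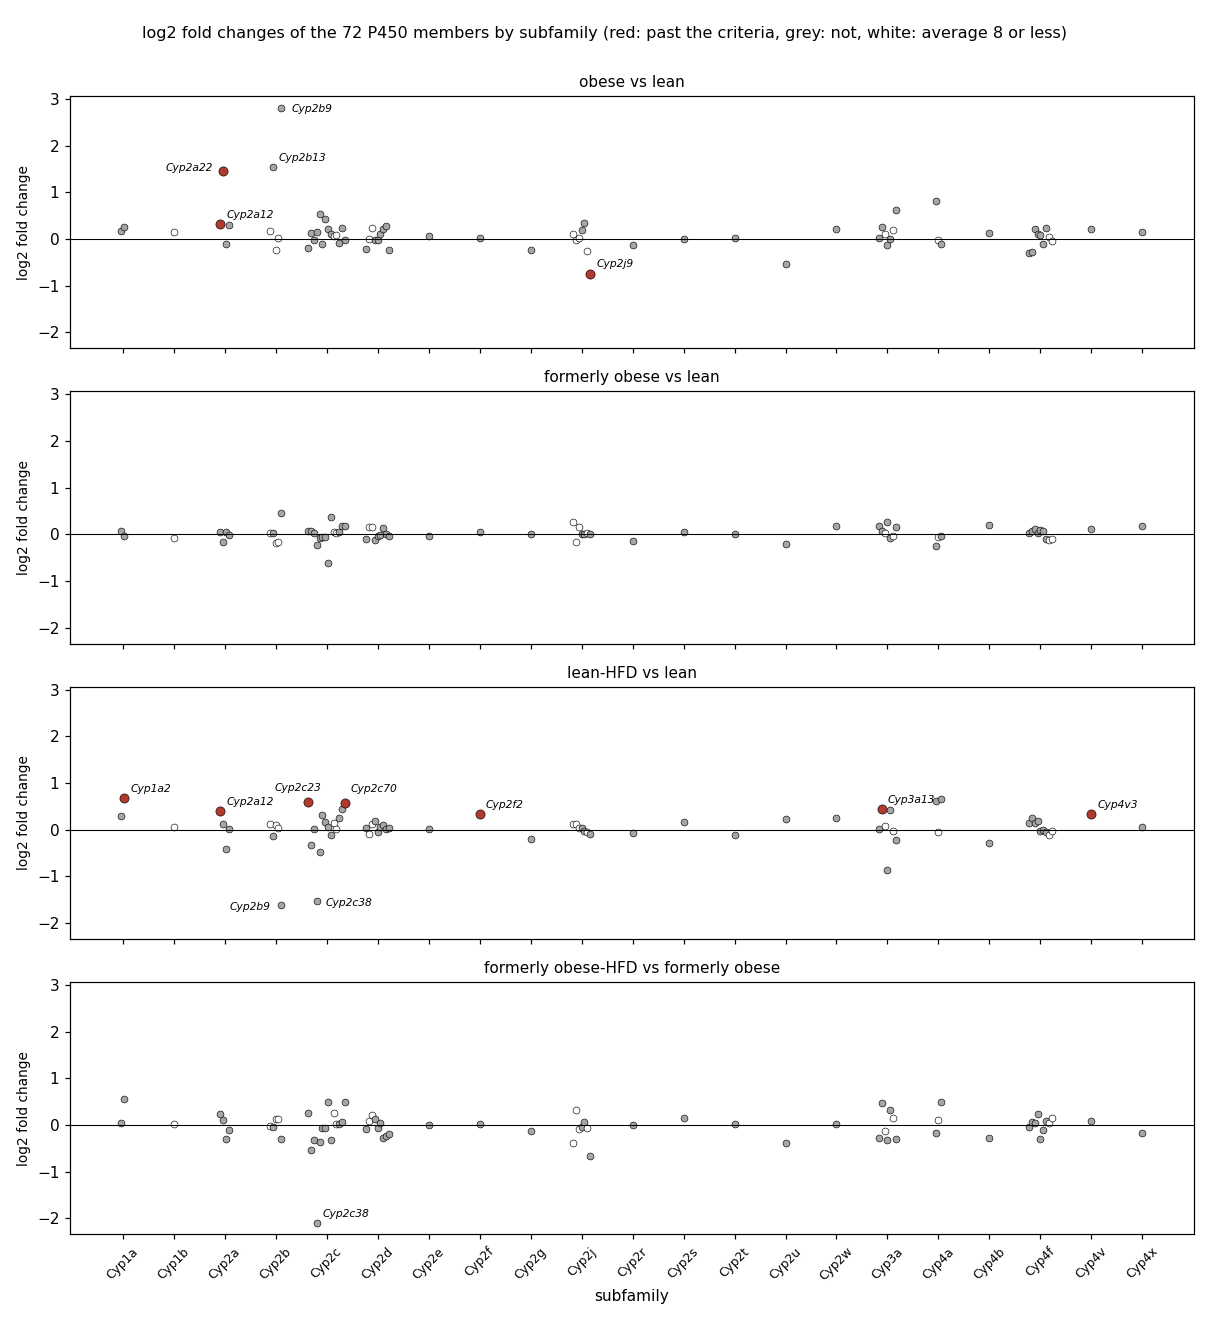
The log2 fold changes of the 72 members by subfamily in 4 comparisons, with red points past the criteria, grey points not past them, and white points for an average of 8 or less. In obese vs lean livers *Cyp2a12*, *Cyp2a22* and *Cyp2j9* are red, in lean-HFD vs lean livers 7 members are red and lie above 0, and in the other 2 panels none is.

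Lean-HFD livers were compared with lean livers to ask what 48 h of HFD changes. Members of 6 subfamilies were higher and none lower: *Cyp1a2*, *Cyp2a12*, *Cyp2c23*, *Cyp2c70*, *Cyp2f2*, *Cyp3a13* and *Cyp4v3* rose, 7 of 72 members (9.72%). Of all probe sets, 0.692% were higher and 0.595% lower by the same criteria, 1.29% in all, and 2.05% of those past the average. None of the 7 was past the FDR, which 0.00726% of all probe sets were, and 11 members had *P* under 0.05 (6.43% of all probe sets). The median over the members was 0.05.

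*Cyp1a2*, which oxidises caffeine and aromatic amines and is an AhR target, ranged from 2138 to 3209 (median 2623) in lean-HFD and from 1331 to 1906 (median 1637) in lean livers. No lean-HFD liver overlapped the lean range, and *Cyp1a2* rose by 0.67 on the log2 scale (standard error 0.115, limma *P*=5.64e-05, adjusted *P*=0.159, exact *P*=0.00216). *Cyp2a12* ranged from 2186 to 2782 (median 2490), again with no overlap, and rose by 0.40 (standard error 0.0861, limma *P*=0.000475, adjusted *P*=0.357, exact *P*=0.00216). Groups did not overlap for these 2 members and for 0.44% of all probe sets. *Cyp2c23*, an arachidonic acid epoxygenase, ranged from 1418 to 1667 (median 1481) in lean-HFD and from 692 to 1451 (median 1070) in lean livers, with 1 lean liver inside the range of lean-HFD livers. It rose by 0.59 (standard error 0.158, limma *P*=0.0025, adjusted *P*=0.531, exact *P*=0.00866). *Cyp2f2*, a periportal enzyme that activates naphthalene, averaged 2234 ± 224 vs 1771 ± 190 and rose by 0.34 (standard error 0.0954, limma *P*=0.0037, adjusted *P*=0.556, exact *P*=0.00433). The calls of *Cyp1a2*, *Cyp2a12*, *Cyp2c23* and *Cyp2f2* held with any of the 12 livers left out.

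The other 3 calls rested on single livers. *Cyp2c70*, which makes muricholic acids in mice, ranged from 1533 to 3015 (median 2036) in lean-HFD and from 1136 to 1635 (median 1442) in lean livers and rose by 0.58 (standard error 0.171, limma *P*=0.00482, exact *P*=0.00649). Without lean replicate 1 or lean-HFD replicate 3 or 6 its *P* was 0.0128, 0.0121 and 0.0109. *Cyp4v3*, a fatty acid hydroxylase, averaged 1336 ± 71.2 vs 1073 ± 140 (log2 0.33, standard error 0.0957, limma *P*=0.00463, exact *P*=0.00433) and was lost without lean replicate 1, where the ratio fell below 1.2, or lean replicate 2 or 6 or lean-HFD replicate 1. *Cyp3a13* averaged 353 ± 69.0 vs 258 ± 44.6 (log2 0.44, standard error 0.145, limma *P*=0.00892, exact *P*=0.0173) and was lost without lean replicate 1, 2, 4 or 5 or lean-HFD replicate 1, 3, 4 or 5, with a highest *P* of 0.0226.

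The largest fold changes downward did not pass. *Cyp2c38*, a Cyp2c gene of the arachidonic acid epoxygenases, ranged from 56.4 to 569 (median 236) in lean-HFD and from 320 to 990 (median 692) in lean livers, where 3 of 6 lean-HFD livers lay at 147 or less. Its log2 fold change was -1.54 (standard error 0.517, limma *P*=0.0107, exact *P*=0.0281), and *P* was below 0.01 without lean replicate 3 or 4 or lean-HFD replicate 2 or 4, the lowest being 0.00291. *Cyp3a25*, named here after its values were seen, averaged 525 in lean-HFD and 915 in lean livers (log2 -0.87, limma *P*=0.0391, exact *P*=0.0693). *Cyp2b9* averaged 69.3 ± 110 in lean-HFD livers, with a median of 22.5 and a highest value of 290 in replicate 1, and its log2 fold change of -1.62 did not pass (limma *P*=0.0974, exact *P*=0.147). *Cyp1a1*, the AhR target most used as a marker, averaged 10.95 ± 1.23 vs 9.0 ± 1.06 (log2 0.28, limma *P*=0.015, exact *P*=0.0195) and did not pass.

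Among the other P450 genes and P450 partners, *Cyp8b1*, the sterol hydroxylase that sets the share of cholic acid, fell by 1.2 (standard error 0.199, adjusted *P*=0.142), and *Cyp7b1*, an oxysterol hydroxylase of the male-biased list, rose by 1.19 (standard error 0.284, adjusted *P*=0.417). Of the 20 measured P450 genes of families 5 to 51, no other passed. *Cyb5r3* and *Cyb5b*, the reductase and an isoform of cytochrome b5, fell by 0.45 and 0.41. Of 13 male-biased genes 3 rose, *Selenbp2* by 1.98, *C6* by 0.79 and *Cyp7b1*. Of 14 female-biased genes 2 fell, *Hamp2* by 1.77 and *Slc22a27* by 1.31. None of 20 regulators of the P450 genes passed, and none of 10 macrophage or 9 hepatocyte markers did. No gene passed among 5 AhR and 23 PPAR-alpha targets outside the P450s, with medians of -0.0005 and -0.10. Among these AhR targets 2 of 5 lay above 0. The sinusoidal endothelial marker *Oit3* fell by 0.50, with sums of 688 to 1096 in lean-HFD and 888 to 1284 in lean livers.

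**Figure D4:**
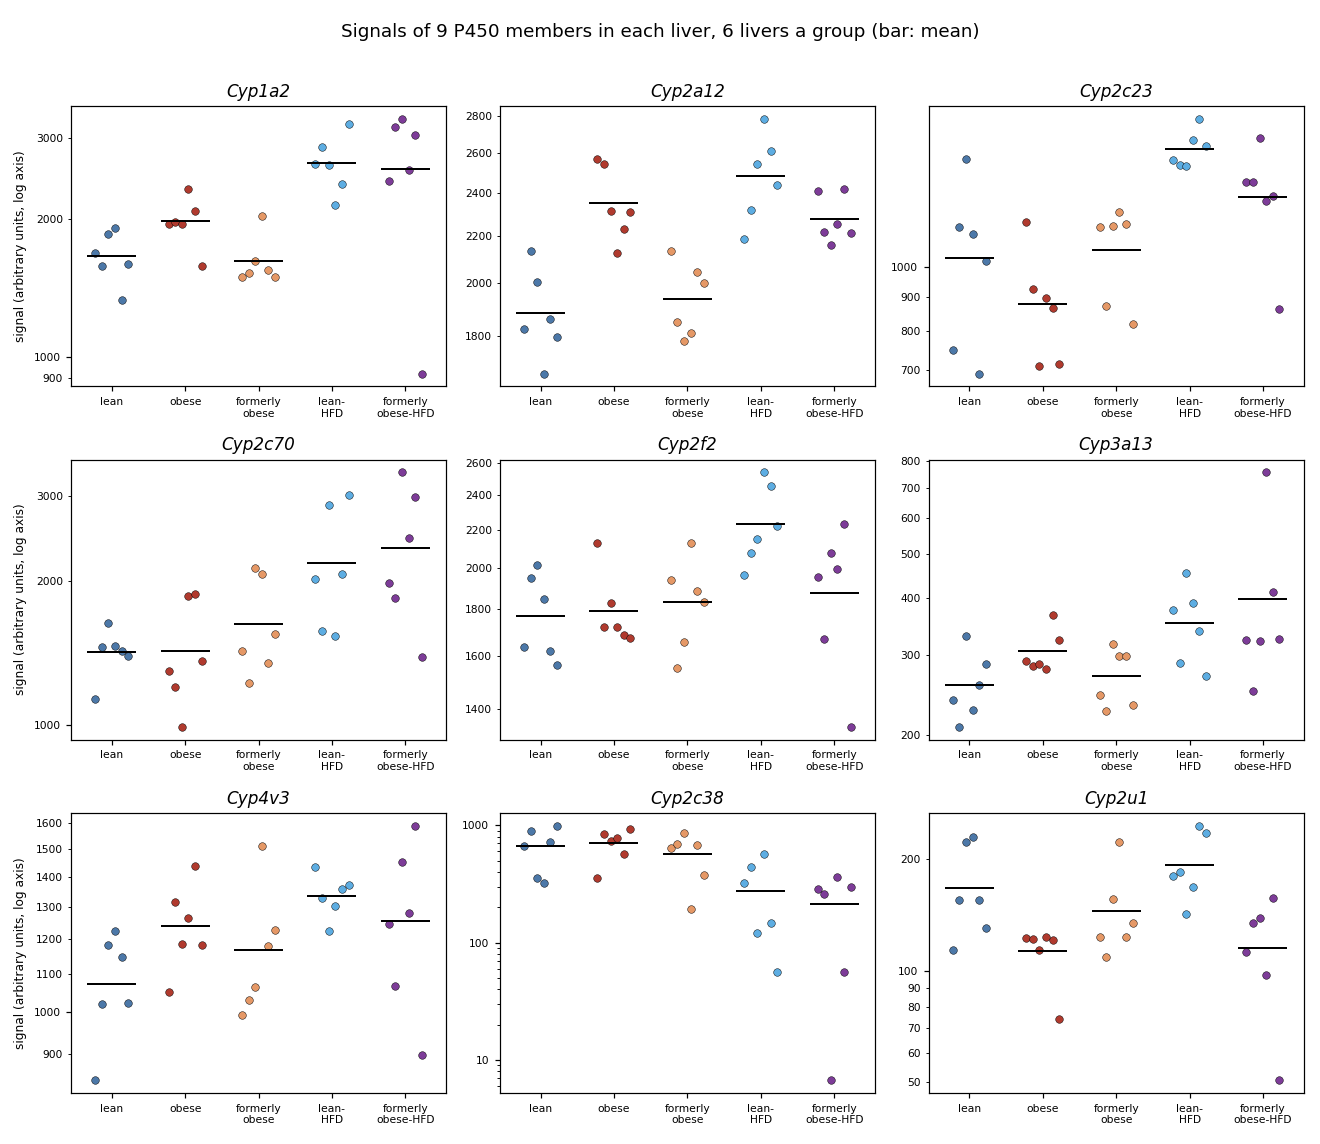
Signals (arbitrary units, logarithmic axis) of 9 members in each of 30 livers, 6 per group, with the mean as a bar. *Cyp1a2* lay at 2138 to 3209 in lean-HFD and 1331 to 1906 in lean livers. Formerly obese-HFD replicate 6 is the low purple point of *Cyp1a2* (920).

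Formerly obese-HFD livers were compared with formerly obese livers to ask the same of mice with a history of obesity. No member passed (1.18% of all probe sets, with 0.358% higher and 0.825% lower, and 1.9% of those past the average), none was past the FDR (0.0242%), and 11 members had an unadjusted limma *P* under 0.05 (5.97% of all probe sets). *Cyp1a2* measured 2410 to 3295 in formerly obese-HFD replicates 1 to 5 and 920 in replicate 6, against 1489 to 2024 (median 1534) in formerly obese livers. With all livers the log2 fold change was 0.57 (standard error 0.261, limma *P*=0.049, exact *P*=0.0974). Without formerly obese-HFD replicate 6 it was 0.84 (adjusted *P*=0.0756), and *Cyp2c70* (log2 0.63, adjusted *P*=0.534) and *Cyp2d13* passed as well. *Cyp2c70* averaged 2335 ± 744 vs 1621 ± 381 with all livers (log2 0.495) and did not pass. *Cyp2a12* ranged from 2160 to 2417 (median 2237) in formerly obese-HFD and from 1783 to 2134 in formerly obese livers, with no overlap (0.414% of all probe sets). Its log2 fold change of 0.24 (standard error 0.0742, limma *P*=0.00715, exact *P*=0.00216) corresponded to a ratio of 1.18, below the minimum of 1.2, and it passed without formerly obese replicate 1 (log2 0.26). Without formerly obese-HFD replicate 6 it was 0.24 and did not pass.

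*Cyp2c38* had the largest fold change downward and did not pass. It measured 6.73 and 56.5 in formerly obese-HFD replicates 3 and 5 and 260 to 361 in the other 4 livers, against 194 to 851 (median 658) in formerly obese livers (log2 -2.10, standard error 0.853, limma *P*=0.0286, exact *P*=0.0238), and the change was -2.36 without replicate 6. *Cyp2j9* averaged 53.1 ± 14.2 in formerly obese-HFD and 85.2 ± 28.3 in formerly obese livers (log2 -0.66, standard error 0.238, limma *P*=0.0155, exact *P*=0.0411), and *P* was 0.00257 without formerly obese replicate 6. Without formerly obese-HFD replicate 6 the change was -0.54. *Cyp2c29*, a target of CAR and PXR, averaged 1398 ± 494 vs 1914 ± 254 (log2 -0.54, limma *P*=0.0407, exact *P*=0.0498), and without formerly obese-HFD replicate 6 it was -0.33. Under settings other than leaving out a liver the change of *Cyp2c29* lay between -0.56 and -0.30. *Tat* of 9 hepatocyte markers rose (log2 0.36), but only 5 of the 9 lay above 0 and their median was 0.005. *Marco* of 10 macrophage markers fell (log2 -1.09), and 0 of the 10 lay above 0, with a median of -0.28. Both values include formerly obese-HFD replicate 6.

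Formerly obese-HFD replicate 6 differed from its group in opposite directions for different members. It had the lowest *Cyp1a2*, *Cyp2c23* (865), *Cyp2d9*, a male-predominant steroid hydroxylase (952), *Cyp2j5*, an arachidonic acid epoxygenase (1226), *Cyp4f14*, which hydroxylates leukotrienes and vitamin E (88.2), and *Cyp2j9* (33.4). It had the highest *Cyp2b9* (984), *Cyp2a4*, a female-predominant steroid hydroxylase (367), *Cyp2a22* (64.5) and *Cyp2b13* (7.97) of the 6 livers. Among genes outside the members, it was the lowest of its group for 12 of 13 male-biased and the highest for 10 of 14 female-biased genes.

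The interaction of history and 48 h of HFD compared both responses. No member passed (0.716% of all probe sets), and none had *P* under 0.05, which 5.2% of all probe sets had. The log2 difference of responses was -0.57 for *Cyp2j9* (standard error 0.284) and -0.31 for *Cyp2f2* (standard error 0.157), both with an adjusted *P*=0.944. Without formerly obese-HFD replicate 6 these were -0.45 and -0.22. For *Cyp1a2* the difference was -0.10 (standard error 0.297) with all livers and 0.17 (standard error 0.161) without that liver, so its sign rested on it. The sign changed in the same way for 16 of 72 members, and no member passed or had *P* under 0.05 without that liver either.

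Formerly obese-HFD and lean-HFD livers were compared to ask whether the history of obesity showed under the same 48 h of HFD. *Cyp2j9* and *Cyp2u1* were lower in formerly obese-HFD livers, 2 of 72 members (2.78%), against 0.914% of all probe sets (0.445% higher, 0.469% lower) and 1.46% of those past the average, and neither a member nor any other probe set was past the FDR. At an unadjusted *P* under 0.05 there were 4 members (5.48% of all probe sets). *Cyp2u1* ranged from 50.6 to 157 (median 123) in formerly obese-HFD and from 143 to 247 (median 183) in lean-HFD livers, and 1 formerly obese-HFD liver lay inside the lean-HFD range. It was lower by 0.81 (standard error 0.243, limma *P*=0.00539, adjusted *P*=0.884, exact *P*=0.00433). Without formerly obese-HFD replicate 6 it was lower by 0.59 and still passed, and it was lost without formerly obese-HFD replicate 4 or lean-HFD replicate 5 or 6. *Cyp2j9* ranged from 33.4 to 68.9 (median 54.0) vs 61.1 to 89.8 (median 73.3), and was lower by 0.56 (standard error 0.175, limma *P*=0.00711, exact *P*=0.013). It was lost without any of 8 livers, namely lean-HFD replicates 1 to 5 and formerly obese-HFD replicates 4, 5 and 6, and was lower by 0.43 without replicate 6. Of the 72 members, 14 changed sign in this comparison without that liver. *Cd68* and *C1qa* of the 10 macrophage markers were higher (log2 0.81 and 0.43). Sums of these 10 were 784 to 1356 in formerly obese-HFD and 427 to 910 in lean-HFD livers. *Tat* of 9 hepatocyte markers was higher (log2 0.44), but only 3 of the 9 lay above 0 and their median was -0.025.

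Obese and lean-HFD livers, which were both on HFD when taken, differed in 11 of 72 members (15.3%), against 2.73% of all probe sets (1.4% higher, 1.34% lower) and 4.39% of those past the average. At an unadjusted *P* under 0.05 there were 20 members (9.3% of all probe sets). *Cyp2a22*, *Cyp2b9*, *Cyp2c38* and *Cyp2c39* were higher in obese livers, and *Cyp1a2*, *Cyp2c23*, *Cyp2f2*, *Cyp2j9*, *Cyp2u1*, *Cyp4a31* and *Cyp4f13* were lower. *Cyp2c23*, *Cyp2j9* and *Cyp2u1* were past the FDR (0.353% of all probe sets). This comparison shares its livers with the 2 comparisons against lean livers above, so its values are no separate support for them. Groups did not overlap for 4 members and for 0.98% of all probe sets.

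*Cyp2c23* ranged from 711 to 1169 (median 882) in obese livers, below all lean-HFD livers, and was lower by 0.79 (standard error 0.116, limma *P*=1.18e-05, adjusted *P*=0.044, exact *P*=0.00216). *Cyp2j9* was lower by 0.65 (standard error 0.104, limma *P*=2.6e-05, adjusted *P*=0.044, exact *P*=0.00216) and *Cyp2u1*, which ranged from 74.2 to 123 in obese livers, by 0.77 (standard error 0.159, limma *P*=0.000293, adjusted *P*=0.0914). *Cyp4f13* was the fourth member without overlap, with 98 to 142 in obese and 152 to 185 in lean-HFD livers (log2 -0.44, standard error 0.103, limma *P*=0.000952, adjusted *P*=0.143, exact *P*=0.00216). *Cyp2b9* had a ratio of averages of 20.9 (log2 4.43, standard error 1.21, limma *P*=0.00277, exact *P*=0.0173), although obese replicates 1 and 5 lay inside the lean-HFD range. *Cyp2c38* and *Cyp2c39*, the latter a retinoic acid hydroxylase, were higher by 1.69 (limma *P*=0.00433, exact *P*=0.00866) and 1.02 (limma *P*=0.00121, exact *P*=0.00649). *Cyp1a2* was lower by 0.42 (standard error 0.114, limma *P*=0.00278, exact *P*=0.00433) and *Cyp2f2* by 0.32 (limma *P*=0.00397, exact *P*=0.00649).

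Some of these calls rested on single livers. *Cyp2a22* (log2 1.33, limma *P*=0.00982, exact *P*=0.0303) was lost without any of 8 livers, obese replicates 2, 3 and 6 and lean-HFD replicates 1, 2, 3, 5 and 6. *Cyp4a31*, with 17.8 to 37.7 in obese and 34.7 to 99.3 in lean-HFD livers (log2 -0.77, limma *P*=0.0088, exact *P*=0.00649), was lost without obese replicate 2, 3, 4 or 6 or lean-HFD replicate 1, 4 or 5. The probe set that carries both *Cyp4a10* and *Cyp4a31* went the other way and did not pass (log2 0.29). Its mean was 1584 in obese and 1324 in lean-HFD livers. The lower value of *Cyp4a31* thus rests on the probe set of that gene alone. *Cyp2c38* was lost without obese replicate 6 or lean-HFD replicate 3 or 5, and *Cyp2f2* without lean-HFD replicate 4 or 5, with *P* of at most 0.0115. *Cyp2c29* did not pass with all livers (log2 0.46, limma *P*=0.0272, exact *P*=0.0519) and passed without lean-HFD replicate 1, its highest liver (2576). Under settings other than leaving out a liver its log2 fold change lay between 0.29 and 0.47, and it did not pass.

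In the same comparison 10 of 23 PPAR-alpha targets were higher and none lower, with *Pex11a* (log2 1.12), *Cd36* (2.08), *Pdk4* (1.3) and *Plin2* (0.86) among them. Of 13 male-biased genes 5 were lower and none higher, with a median of -0.88, and of 14 female-biased genes 4 were higher and none lower, with a median of 0.67. *Nr1i3* was higher (log2 0.44) and *Hnf4a* and *Rxra*, which encode nuclear receptors of the same network, were lower (log2 -0.40 and -0.36). Among 21 CAR and PXR targets outside the P450s 4 were higher and none lower, with a median of 0.08. *Lyve1* and *Oit3* of 8 sinusoidal endothelial markers were higher (log2 1.35 and 0.59), as was *Dcn* of 8 stellate and fibroblast markers (0.42). The sum of the stellate and fibroblast markers was 1614 to 2078 in obese and 1205 to 1564 in lean-HFD livers, and that of the hepatocyte markers 29968 to 31603 and 32040 to 33105, and their part in the results was not tested.

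Of 9 Cyp2d genes, none passed in obese vs lean livers (median -0.00, range -0.24 to 0.27) or in lean-HFD vs lean livers (median 0.03, range -0.09 to 0.19). *Cyp2d9* averaged between 1852 and 2183 in the 5 groups. Of 14 Cyp2c genes, 9 lay above and 5 below 0 in obese vs lean livers and none passed. Of 9 Cyp4f genes, *Cyp4f13* alone changed in any of the comparisons. *Cyp2a5*, a coumarin hydroxylase and close copy of *Cyp2a4*, averaged between 32.8 and 43.4, and *Cyp2a4* between 92.9 and 127 with single livers up to 448. *Cyp2r1* averaged between 166 and 184 and *Cyp2j5* between 1733 and 1978.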

How the data were processed

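RNA of 30 mouse livers was measured on 1 array each. The authors deposited log2 signals of 41345 probe sets, made with Affymetrix Expression Console 1.4.1.46 by RMA, that is background correction, quantile normalisation and median polish. Quantile normalisation sets the arrays to a common distribution, so changes are relative to it. No genome build was named in the sources used here. Signals are 2 to the power of these values. The precision is limited by 6 arrays per group, and arrays hold no read depth.

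Groups follow the labels. Each comparison was fitted with limma 3.58.1 (R 4.3.3) on its 12 livers, the interaction on 24, after a test on simulated data, beside exact permutation tests. The criteria were *P* under 0.01, a ratio above 1.2 and an average above 8. Adjustment was by Benjamini-Hochberg over all probe sets. Named are members past the criteria (up to 8 per direction) and 17 prototypes of known role, and up to 4 genes per related gene list. Outside this rule, *Cyp2c54*, *Cyp2c55*, *Cyp2d13*, *Cyp2d26* and *Cyp3a25* are named with results after their values were seen. The members and lists were chosen with earlier results of these data known. Alternatives were other fits, filters, blocks and leaving out each liver. Promoters were searched with Python 3.11.15.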

Additional observations from a re-analysis of the deposited data

Results flagged for a closer look

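In 145 groups of 6 livers, the highest or lowest value of a named member was tested for standing apart from the other 5 livers, and 16 did so, where chance gives about 1 in 20. Of these, 5 belonged to formerly obese-HFD replicate 6, the lowest of its group each time: *Cyp1a2* (920.33), *Cyp2c23* (865.27), *Cyp2d9* (952.12), *Cyp2j5* (1226.2) and *Cyp4f14* (88.218).

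In lean-HFD livers, replicate 4 was highest for *Cyp2a4* (447.89) and lowest for *Cyp2b10* (4.4599) and *Cyp2j5* (1494), and replicate 1 was highest for *Cyp2b13* (8.3455) and *Cyp2c29* (2576.1). In obese livers, replicate 1 was highest for *Cyp2f2* (2129.1) and lowest for *Cyp4a14* (904.51), and replicate 6 was lowest for *Cyp2u1* (74.234). In formerly obese livers, replicate 4 was highest for *Cyp1a2* (2024) and replicate 1 lowest for *Cyp2e1* (3304). In lean livers, replicate 4 was lowest for *Cyp2c39* (12.987).

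Probe sets that carry several symbols were not used for the members, and 3 of them passed the criteria. That of *Cyp4a10* and *Cyp4a31* was lower in formerly obese than in obese livers (log2 -1.1765, adjusted *P*=0.327). That of *Cyp2c67* and *Cyp2c68* was higher in lean-HFD than in lean livers (log2 0.59883) and lower in obese than in lean-HFD livers (log2 -0.67633). That of *Klkb1* and *Cyp4v3* was lower in obese than in lean-HFD livers (log2 -0.3355).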

How the results depend on the processing

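With the FDR of 10% in place of the criteria, the members past it were 1 in obese vs lean, 0 in formerly obese vs obese, 0 in lean-HFD vs lean, 0 in formerly obese-HFD vs lean-HFD and 3 in obese vs lean-HFD livers. In formerly obese-HFD vs formerly obese livers, where none passed, 3 did in a single fit of all 30 livers (*Cyp1a2*, *Cyp2c38*, *Cyp2j9*), 1 with array weights (*Cyp1a2*) and 1 with no minimum fold change (*Cyp2a12*). The single fit also gained *Cyp2b13* in 3 comparisons, and it lost *Cyp4f13* in formerly obese vs obese, *Cyp3a13* and *Cyp4v3* in lean-HFD vs lean, and *Cyp1a2* (*P* of 0.0418), *Cyp2c38* and *Cyp4a31* in obese vs lean-HFD livers. Leaving out each liver in turn gave 3 to 6 members in obese vs lean, 0 in formerly obese vs lean, 1 to 6 in formerly obese vs obese, 4 to 9 in lean-HFD vs lean, 0 to 3 in formerly obese-HFD vs formerly obese, 0 to 2 in formerly obese-HFD vs lean-HFD, 7 to 14 in obese vs lean-HFD livers and 0 for the interaction. In the 53 pairwise results of single members that were run, no direction reversed. Of their 318 values under other settings, 289 kept their call, and of 636 with a liver left out, 538 did. These 53 results do not cover all members. Over all 72 members, leaving out formerly obese-HFD replicate 6 turned the sign for 10 in formerly obese-HFD vs formerly obese livers. It did so for 14 in formerly obese-HFD vs lean-HFD livers. Interaction values of single members were run with formerly obese-HFD replicate 6 left out, which turned the sign for 16 of 72, *Cyp1a2* among them (-0.10 to 0.17). The cause of the changes was not tested.

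Same-numbered livers correlated weakly, with *r* of -0.11 to 0.11, in their deviations from the group means. In lean-HFD vs lean livers, 4 of 6 livers correlated best with the liver of their own number, although these *r* were at most 0.062. In the other pairwise comparisons 0 to 2 of 6 did. Whether the numbers pair livers was not tested further. With the replicate number as a block, the counts were 4, 0, 6 and 5 for obese vs lean, formerly obese vs lean, formerly obese vs obese and lean-HFD vs lean, then 1 for formerly obese-HFD vs formerly obese, 1 for formerly obese-HFD vs lean-HFD, 7 for obese vs lean-HFD and 0 for the interaction.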

Other observations

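Among P450 genes of families 5 to 51, *Cyp39a1*, an oxysterol hydroxylase of bile acid synthesis, was lower in obese than in lean livers (log2 -0.82, adjusted *P*=0.107) and higher in formerly obese than in obese livers (log2 0.92, adjusted *P*=0.0785). Both comparisons use the same obese livers. It was also lower in obese than in lean-HFD livers (log2 -0.89, adjusted *P*=0.156), where *Cyp8b1* was higher (log2 1.31) and *Cyp7b1* lower (log2 -1.3). *Tbxas1*, thromboxane synthase, was higher in formerly obese-HFD than in lean-HFD livers (log2 0.27, adjusted *P*=0.884).

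Of 13 measured pericentral hepatocyte genes, *Oat*, *Aldh1a1* and *Aldh1a7* fell in formerly obese vs obese livers (log2 -0.64, -0.49 and -0.51), and of 8 periportal genes *Cps1* rose (log2 0.40) and *Aldh1b1* fell (log2 -0.71). Above 0 lay 2 of the 13 pericentral genes (median -0.148) and 7 of the 8 periportal genes (median 0.195). The periportal *Pck1* rose in lean-HFD vs lean livers (log2 0.43), but only 3 of the 8 periportal genes lay above 0 and their median was -0.03.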
